A study of Mus musculus with 8 samples.

Results

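Ribosomal protein paralog pairs are genes for a subunit protein of the cytosolic ribosome and for a second, closely related protein. Rpl3 and Rpl3l were picked for their opposite changes in these data, and the pairs Rpl22 and Rpl22l1, Rps27 and Rps27l, and Rpl7 and Rpl7l1 were added as the other paralog pairs, so that 8 of the 22880 genes in the files are described here. Because the first pair was chosen from the same measurements, its values are given without a test. The other 6 genes carry the test across all genes.

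The data are gene counts from RNA sequencing of soleus, a calf muscle of slow and fast fibres, of 4 control mice (Dnm2 +/+) and 4 heterozygous mutant mice (Dnm2 +/K562E). All 8 were males of 2 months on the C57BL/6 background (C57bl/6 J in the study's methods), and every mouse was a separate animal. Dnm2 encodes dynamin 2, a GTPase that cuts vesicles from membranes, and the comparison asks how the K562E point mutation alters muscle transcripts. The mutation was introduced into the endogenous gene by homologous recombination in embryonic stem cells, so it is present in every cell type of the muscle and its allele also retains a loxP site in an intron, which the controls lack.

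In growing cells the ribosomal proteins are made in near-equal amounts, and most are encoded by a single gene. A few have a second copy used in certain tissues. RPL3 lies close to the peptidyl transferase centre of the large subunit, and its paralog RPL3L replaces it in mature heart and skeletal muscle. RPL22 binds RNA at the surface of the large subunit, where RPL22L1 can take its place. RPS27 is a zinc finger protein of the small subunit and RPS27L its p53-responsive counterpart. RPL7 is a protein of the large subunit, and RPL7L1 is known mainly as a factor of ribosome assembly rather than as a subunit.

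Each paralog has its own chromosomal locus in GRCm38 (GENCODE M21), and all 8 are protein-coding. Rpl3 lies at chr15:80077791-80091868 on the minus strand and Rpl3l at chr17:24727820-24736143 on the plus strand. Rpl22 lies at chr4:152325742-152334071 (plus) and Rpl22l1 at chr3:28805436-28807424 (plus). Rps27 lies at chr3:90212522-90213651 (minus) and Rps27l at chr9:66946086-66949516 (plus). Rpl7 lies at chr1:16101295-16104662 (minus) and Rpl7l1 at chr17:46773907-46782672 (minus). None of their exons overlapped an exon of another counted gene.

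How far the 2 messages of a pair differ decides whether a read can be given to one of them. The coding sequences were 74.3% identical between Rpl3 and Rpl3l, 70.2% between Rpl22 and Rpl22l1, 76.1% between Rps27 and Rps27l and 59.9% between Rpl7 and Rpl7l1, over their aligned bases. No stretch of 31 bases was shared within any pair. The stretches below are the most similar ones of one read length in the pairs whose ratio differed between genotypes, with the mismatched bases in capitals. They are exonic coding sequence, numbered from the first base of the start codon. Over positions 685 to 835 of both messages, Rpl3 and Rpl3l differed at 29 bases:
Rpl3: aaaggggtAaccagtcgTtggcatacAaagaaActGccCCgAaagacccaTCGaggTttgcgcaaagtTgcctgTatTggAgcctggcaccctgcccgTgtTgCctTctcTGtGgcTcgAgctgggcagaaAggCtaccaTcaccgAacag
Rpl3l: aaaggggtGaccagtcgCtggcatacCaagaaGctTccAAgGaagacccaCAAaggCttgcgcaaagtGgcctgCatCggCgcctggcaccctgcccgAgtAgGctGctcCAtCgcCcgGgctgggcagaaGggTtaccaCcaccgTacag
Over positions 214 to 364 of Rpl22 and 196 to 346 of Rpl22l1, 34 bases differed:
Rpl22: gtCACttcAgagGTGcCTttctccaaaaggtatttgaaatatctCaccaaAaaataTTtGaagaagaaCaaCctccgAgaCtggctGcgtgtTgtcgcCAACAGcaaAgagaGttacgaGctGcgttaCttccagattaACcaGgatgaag
Rpl22l1: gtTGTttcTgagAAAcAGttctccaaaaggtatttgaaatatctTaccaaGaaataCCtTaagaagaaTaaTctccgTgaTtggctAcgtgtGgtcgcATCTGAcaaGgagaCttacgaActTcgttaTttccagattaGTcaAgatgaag
For the other pairs the lowest number of mismatches in such a window was 31 (Rps27 and Rps27l) and 55 (Rpl7 and Rpl7l1). Any such stretch of one paralog thus had at least 29 mismatches to the other.

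Copies elsewhere in the genome were a larger source of ambiguity for some members. Of the 31-base stretches in annotated transcripts of Rpl3, 37.6% also occurred in another annotated gene, most of them in the processed pseudogene Rpl3-ps1 (34.4%), and for Rps27 27.6% did, nearly all in the protein-coding copy Rps27rt (27.4%). The share was 0 for Rpl3l, 6.79% for Rpl22, 17.4% for Rpl22l1, 16.1% for Rps27l, 25.8% for Rpl7 and 16.0% for Rpl7l1. These shares pool all annotated transcripts of a gene, with 1220 of 3249 stretches shared for Rpl3 and 317 of 1150 for Rps27. Their principal transcripts are shorter (1351 and 345 bases), so the shared part of that message may be larger. It was not computed. The level of Rps27 and of Rpl3 is therefore less certain than that of Rpl3l, since a read matching 2 genes equally well could be placed on the copy or lost.

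Depth lay between 33407430 and 48832814 counts per mouse, and all 8 members passed the filter on low counts, with the lowest value of any member at 10.9 CPM. Values are CPM after TMM normalization, which brings libraries of unequal depth and composition to one scale, and means are given ± SD with n = 4 mice per genotype. Fold changes are log2 differences of Dnm2 +/K562E over control from edgeR's quasi-likelihood fit, with the SE and a Benjamini-Hochberg adjusted p over 14001 tested genes. At an adjusted p under 0.05, 22.2% of the tested genes were higher and 21.7% lower in Dnm2 +/K562E muscle, and for 41.2% the mutant and control values did not overlap. The median log2 fold change of all tested genes was 0.0074.

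The muscle-specific paralog of the first pair was lower and the general one higher in every mutant mouse. Rpl3l was at 296.2, 309.5, 317.7 and 315.9 CPM in control mice 1 to 4 and at 102.5, 136.5, 129.6 and 124.7 CPM in Dnm2 +/K562E mice 1 to 4. The highest mutant value was below the lowest control value. Its mean went from 309.8 ± 9.71 to 123.3 ± 14.7 CPM, a log2 fold change of -1.33 (SE 0.0844), or 2.51-fold lower. In order of fold change from the lowest it stood at place 170 of 14001 genes.

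Rpl3 was at 117.7, 103.1, 105.5 and 107.9 CPM in the controls and at 190.2, 196.5, 217.2 and 175.8 CPM in the mutants. These ranges did not overlap either. The mean went from 108.5 ± 6.41 to 194.9 ± 17.2 CPM, a log2 fold change of 0.85 (SE 0.074), or 1.80-fold higher. It was the highest log2 fold change among the 79 cytosolic ribosomal protein genes. The size of both changes and the lack of overlap follow from how the pair was picked, so nothing is read from them beyond the levels.

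**Figure D1:**
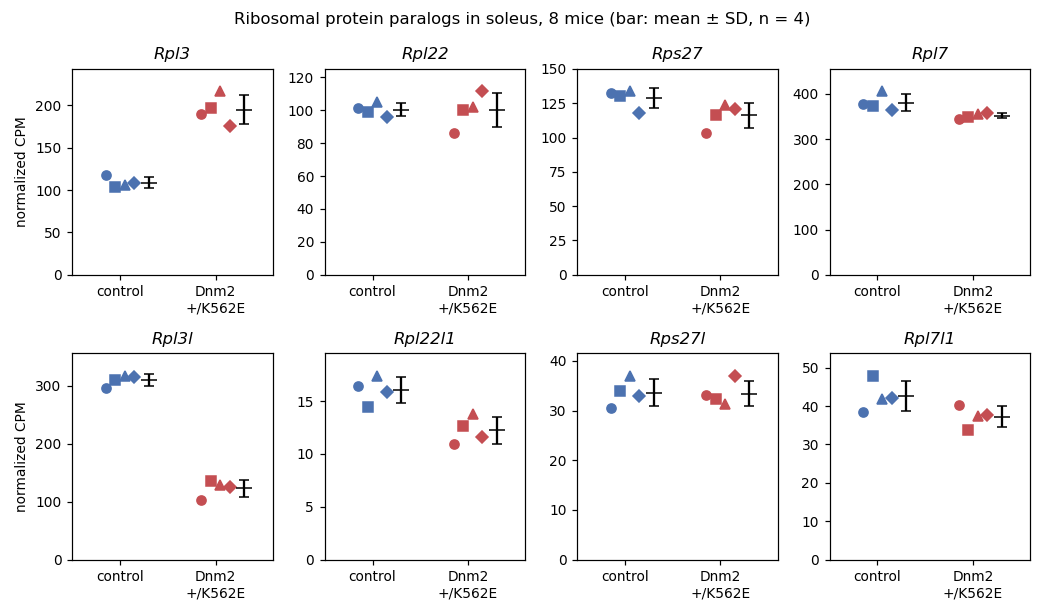
Normalized CPM (vertical axes from 0) of the 8 genes in the 4 control (blue) and 4 Dnm2 +/K562E (red) mice, with marker shapes for mouse numbers 1 to 4 and black bars for the mean ± SD. Rpl3 and Rpl3l separate in opposite directions, Rpl22l1 and, by a small amount, Rpl7 are lower in all mutants, and the remaining genes overlap. Among all tested genes 41.2% did not overlap.

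Counted against each other, the pair changed places. The count ratio of Rpl3l to Rpl3 was 2.52, 3.00, 3.01 and 2.93 in controls 1 to 4 and 0.539, 0.695, 0.597 and 0.709 in mutants 1 to 4. Rpl3l was the more abundant message in every control and the less abundant one in every mutant. The geometric mean fell from 2.86 to 0.631, a difference of -2.18 on the log2 scale (SE 0.113) or 4.53-fold, and a ratio within a mouse needs no scaling between libraries. Without any one mouse the difference lay between -2.24 and -2.10. The mice varied within their genotype: control 1 had the highest Rpl3 and the lowest Rpl3l of the controls, and mutant 1 the lowest Rpl3l of all mice.

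Per kilobase of the principal transcript (1351 bases for Rpl3, 1375 for Rpl3l), the counted rise in Rpl3 was smaller than the counted drop in Rpl3l. The level of Rpl3l per kb was 225.3 ± 7.07 in controls and 89.7 ± 10.7 in mutants, and that of Rpl3 was 80.3 ± 4.74 and 144.3 ± 12.7. The summed level of the pair was 302.6, 301.4, 309.1 and 309.6 CPM per kb in the controls and 215.3, 244.7, 255.0 and 220.8 in the mutants. All mutant sums were below all control sums. Rpl3l made up 73.7% ± 1.68 of the sum in controls (71.2% to 74.7%) and 38.3% ± 3.07 in mutants (34.6% to 41.1%). These sums and shares rest on the Rpl3 level, which may be undercounted because of the copies named above, and no correction was made. They concern messages, since no protein was measured.

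**Figure D2:**
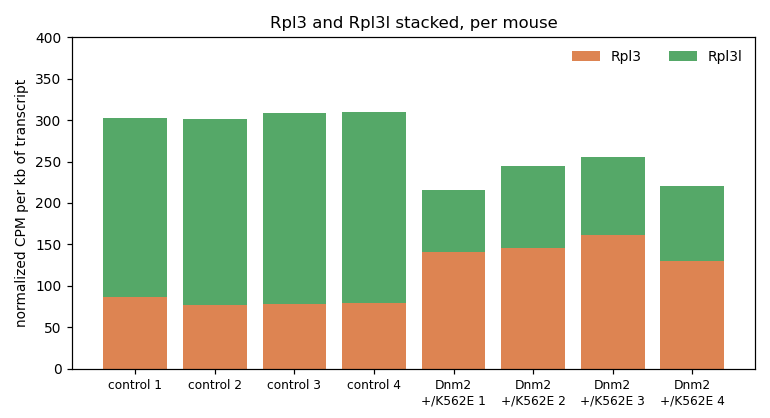
Normalized CPM per kb of transcript (vertical axis) for Rpl3 (orange) and Rpl3l (green), stacked for each of the 8 mice. The bars reach 301.4 to 309.6 in controls and 215.3 to 255.0 in Dnm2 +/K562E mice, with Rpl3l the larger part in the controls and the smaller in the mutants.

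In a whole muscle, fewer cells of a type and less RNA per cell cannot be told apart, and the markers of the tissue's cells differed between genotypes. Of 12 markers of mature myofibres 8 were lower and 1, Des, was higher, against 21.7% lower and 22.2% higher among all genes. The summed level of the markers went from 74110 to 81919 CPM in controls to 53157 to 59383 CPM in mutants. The log2 fold change of every marker was above that of Rpl3l, the lowest being that of Ckm, the muscle creatine kinase, at -1.02 (SE 0.102). As a percentage of the summed marker CPM, Rpl3l was at 0.399%, 0.396%, 0.388% and 0.426% in controls and 0.193%, 0.236%, 0.218% and 0.212% in mutants. Against the summed myofibre messages Rpl3l was lower in all mutants, by 0.91 on the log2 scale. Because Rpl3l was picked for its change in the same mice, these values are description only, and their cause was not tested.

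Markers of other cell types differed as well, where 22.2% of all genes were higher and 21.7% lower. All 6 fibroblast markers were higher (summed level 1876 to 2848 CPM in controls, 3947 to 5108 CPM in mutants), as were all 7 macrophage markers (72.8 to 135.5 CPM and 179.3 to 295.6 CPM). Against the summed fibroblast markers, Rpl3 was at a ratio of 0.0379 to 0.0564 in controls and 0.0372 to 0.0494 in mutants, and these ranges overlapped. Against the macrophage markers its ratio was 0.796 to 1.54 in controls and 0.644 to 1.00 in mutants, again overlapping. As a percentage of the summed mature myofibre markers, Rpl3 was at 0.129% to 0.159% in controls and 0.299% to 0.366% in mutants, without overlap. That separation follows from the choice of Rpl3 for its change and from the lower marker sum in mutants. The ratios of Rpl3 to the markers are description only. Of 10 markers of immature or regenerating fibres 6 were higher and none lower (115.8 to 125.5 CPM and 697.9 to 978.7 CPM), led by the light chain gene Myl4 and embryonic myosin Myh3 at log2 fold changes of 4.84 and 3.84. All 4 endothelial markers (810.4 to 849.9 CPM and 576.3 to 661.6 CPM) and all 4 red blood cell markers (514.4 to 878.1 CPM and 241.8 to 506.5 CPM) were lower. Mymx, a fusion factor of myoblasts, had a count of 0 in control 2, and every other marker was above 0 in every mouse. The part of these cells in the levels of Rpl3 and Rpl3l was not tested.

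The sequence upstream of Rpl3l is shown because Rpl3l was the member with the lowest fold change. In RefSeq (GRCm38.p6), the 250 bases before its start, chr17:24727576-24727825 on the plus strand, hold 3 E-boxes (CANNTG, the same on both strands, in capitals), the motif bound by myogenic basic helix-loop-helix factors:
Rpl3l upstream: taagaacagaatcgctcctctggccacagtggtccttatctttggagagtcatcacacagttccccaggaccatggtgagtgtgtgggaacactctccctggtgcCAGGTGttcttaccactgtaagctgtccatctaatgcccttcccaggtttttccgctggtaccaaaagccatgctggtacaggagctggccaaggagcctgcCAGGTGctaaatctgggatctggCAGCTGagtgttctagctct
At least 3 E-boxes in the 250 bases before the start were found in 12.2% of 32851 promoters of the same length, and at least 1 in 66.2%. Rpl3l had 2 RefSeq entries, and only the one starting nearest the GENCODE gene start was examined. Binding was not measured here.

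Rpl22l1 was the only 1 of the 6 genes outside the first pair to pass the test, and it was lower. It was at 16.4, 14.5, 17.4 and 15.9 CPM in controls 1 to 4 and at 10.9, 12.6, 13.8 and 11.6 CPM in mutants 1 to 4, so that all mutants were below all controls. The mean fell from 16.1 ± 1.22 to 12.2 ± 1.27 CPM, a log2 fold change of -0.39 (SE 0.0962, edgeR adjusted p = 0.00689). Against the 21.7% of all genes that were lower, 1 of 6 is no larger a share. When libraries were scaled by their total alone, which moved the median of all genes to 0.22, its log2 fold change was -0.18 (edgeR adjusted p = 0.14).

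Rpl22 itself did not pass. It was at 101.3, 99.2, 105.2 and 95.9 CPM in the controls and 86.3, 99.99, 102.3 and 111.9 CPM in the mutants, with the lowest and the highest value both in mutant mice. The log2 fold change was -0.0047 (SE 0.0775, edgeR adjusted p = 0.967).

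The ratio of Rpl22l1 to Rpl22, which needs no scaling between libraries, was 0.162, 0.146, 0.166 and 0.166 in controls and 0.127, 0.126, 0.135 and 0.103 in mutants. All mutant ratios were below all control ratios. The difference was -0.39 on the log2 scale (SE 0.0943), or 1.31-fold, with an exact two-sided permutation p = 0.0286 for 4 against 4 mice, the smallest p this design allows. It is 1 of 3 ratios tested in this way, with no adjustment. Without any one mouse the difference was between -0.43 and -0.31. Unlike Rpl3l, Rpl22l1 was the minor message in both genotypes.

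**Figure D3:**
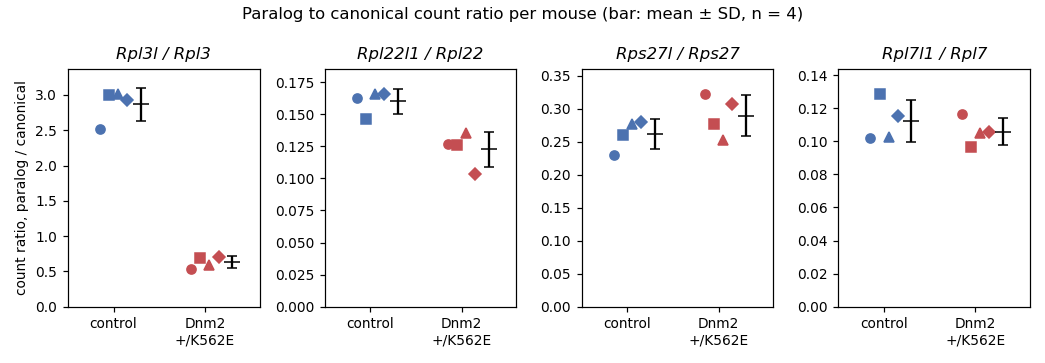
Count ratio of the paralog to the canonical gene (vertical axes from 0) in each control (blue) and Dnm2 +/K562E (red) mouse, with black bars for the mean ± SD. The ratio of Rpl3l to Rpl3 lies at 2.52 to 3.01 in controls and 0.539 to 0.709 in mutants, that of Rpl22l1 to Rpl22 is lower in all mutants, and the ratios of the other pairs overlap.

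For the Rps27 pair neither gene passed the test. Rps27 was at 132.8, 130.0, 134.1 and 117.9 CPM in controls and 102.9, 116.6, 123.8 and 120.9 CPM in mutants, with a log2 fold change of -0.15 (SE 0.0715, edgeR adjusted p = 0.114). Mutant 1 was the lowest, and the groups overlapped. Rps27l was at 30.5, 33.9, 37.0 and 32.9 CPM in controls and 33.1, 32.2, 31.3 and 37.0 CPM in mutants, with a log2 fold change of -0.0080 (SE 0.0791, edgeR adjusted p = 0.943). The mutant values lay within the range of the controls. The ratio of Rps27l to Rps27 was 0.230, 0.261, 0.276 and 0.279 in controls and 0.322, 0.277, 0.253 and 0.306 in mutants. It differed by 0.14 on the log2 scale (SE 0.101, exact permutation p = 0.229). With the reads of Rps27rt added to Rps27, the difference was 0.15 (exact permutation p = 0.229). This sum cannot restore reads that were dropped because they matched both genes.

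As Rps27l is known as a target of p53, 20 other p53 targets were examined. Of these, 5 were higher and 4 lower, shares close to the 22.2% and 21.7% of all genes, with a median log2 fold change of 0.07. Eda2r, a receptor of the TNF receptor family, was higher by 2.27 on the log2 scale (SE 0.147, edgeR adjusted p = 1.47e-06) and the cell death genes Pmaip1 and Bbc3 by 1.59 and 0.80, whereas Ccng1, Btg2 and Fas fell by 0.64, 0.61 and 0.50. Pmaip1 and Bbc3 were low, at 0.265 ± 0.116 and 1.91 ± 0.426 CPM in controls, and Bbc3 lost its call without any of 4 of the mice (mutant 1 or 2, control 1 or 2), with edgeR adjusted p between 0.0604 and 0.104. Rps27l had a mean of 33.6 ± 2.71 CPM in controls and 33.4 ± 2.52 CPM in mutants.

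For the Rpl7 pair neither gene passed either. Rpl7, the most counted member, was at 377.1, 372.7, 407.4 and 364.1 CPM in controls and 345.4, 349.2, 355.3 and 357.1 CPM in mutants. All mutants were below all controls, as holds in one direction or the other for 41.2% of all genes, but the log2 fold change was small (-0.11, SE 0.0556, edgeR adjusted p = 0.124). Rpl7l1 was at 38.4, 47.9, 41.8 and 42.0 CPM in controls and 40.2, 33.6, 37.4 and 37.7 CPM in mutants, with a log2 fold change of -0.19 (SE 0.0818, edgeR adjusted p = 0.0783). The groups overlapped through control 1 and mutant 1. Without control 1 the log2 fold change of Rpl7l1 was -0.25 and passed the test (edgeR adjusted p = 0.0275). The ratio of Rpl7l1 to Rpl7 was 0.102, 0.129, 0.103 and 0.115 in controls and 0.116, 0.0963, 0.105 and 0.106 in mutants, a difference of -0.08 on the log2 scale (SE 0.0973, exact permutation p = 0.486).

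The order of the members by level per kb of transcript placed Rps27 (373.1 ± 21.5 in controls) and Rpl7 (327.0 ± 16.2) highest. In controls Rpl3l (225.3 ± 7.07) was far above Rpl3 (80.3 ± 4.74), Rps27l (67.3 ± 5.43), Rpl7l1 (32.5 ± 3.01) and Rpl22l1 (29.1 ± 2.22). In mutants Rpl3 (144.3 ± 12.7) stood above Rpl3l (89.7 ± 10.7), and Rps27l (67.0 ± 5.06), Rpl7l1 (28.4 ± 2.07) and Rpl22l1 (22.2 ± 2.29) followed. The control ranges of Rpl7l1 and Rpl22l1 overlapped, as did those of Rps27 and Rpl7. Rpl22 could not be placed, since its level in controls was 211.9 per kb with a transcript of 474 bases and 49.0 per kb with one of 2051 bases, and Rpl7l1 was at 16.3 per kb with its longer transcript of 2606 bases. Rpl3l was the only 1 of the 4 paralogs whose count exceeded that of its partner in any mouse.

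Messages of many ribosomal proteins begin with a run of pyrimidines that ties their translation to growth signals. The 30 bases from 20 before to 10 after the RefSeq start (GRCm38.p6) are shown for the members with an entry, with the longest run of C and T in capitals. Rpl3 and Rpl7 had no entry. Rpl3l, Rpl22 and Rps27l had 2 entries each, and only the one starting nearest the GENCODE gene start was used. The RefSeq start need not be the one used in soleus:
Rpl3l: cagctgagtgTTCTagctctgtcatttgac
Rpl22: ccgaCTTCgccctgggaaaagcaatagctg
Rpl22l1: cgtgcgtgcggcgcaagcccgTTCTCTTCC
Rps27: acaggatttccgctttcgCTCCTTTCCggc
Rps27l: cctctccaCTCCTCCCCgccgcctctatcc
Rpl7l1: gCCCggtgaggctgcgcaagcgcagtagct
These windows lie on chr17:24727806-24727835 (plus, Rpl3l), chr4:152325706-152325735 (plus, Rpl22), chr3:28805488-28805517 (plus, Rpl22l1), chr3:90213639-90213668 (minus, Rps27), chr9:66946066-66946095 (plus, Rps27l) and chr17:46782647-46782676 (minus, Rpl7l1). Rpl22l1, Rps27 and Rps27l held a run of 9, and a run at least that long was found in 8.33% of all promoters. Rpl3l and Rpl22 held a run of 4, which 69.8% reached, and Rpl7l1 one of 3, which 88.6% reached. These are the longest runs anywhere in the window and need not begin the message. The run of Rps27 spans the RefSeq start, and that of Rpl22l1 lies after it and reaches the end of the window. Those of Rps27l, Rpl3l, Rpl22 and Rpl7l1 lie wholly before the RefSeq start, outside a message that begins there.

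The other cytosolic ribosomal protein genes differed far less than Rpl3. Since Rpl3 was picked for its change in the same mice, this contrast and its share of the summed CPM are description only. Of the 75 outside the pairs, 7 were higher and 8 lower, against 22.2% and 21.7% of all genes, with a median log2 fold change of 0.02. The highest log2 fold change among them was 0.35 (Rps20, edgeR adjusted p = 0.0109), and no gene of the 75 reached 0.58 in either direction. Rps2 fell by 0.25 and Rps29 by 0.22 on the log2 scale, whereas Rps20 and Rpl10 rose by 0.35 and 0.31. Scaled by library size alone, the median of the 75 was 0.23, near the 0.22 of all genes, and Rps2 and Rps29 no longer passed. Rps2 also lost its call without control 2 or 3 (edgeR adjusted p 0.0515 to 0.0579), and Rps29 without mutant 1 or 2 or control 2 (edgeR adjusted p 0.0521 to 0.0570). With the length and GC correction the log2 fold change of Rps29 was -0.11 (edgeR adjusted p = 0.246). Rpl3 made up 0.608% to 0.701% of the summed ribosomal protein CPM in controls and 1.04% to 1.26% in mutants.

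**Figure D4:**
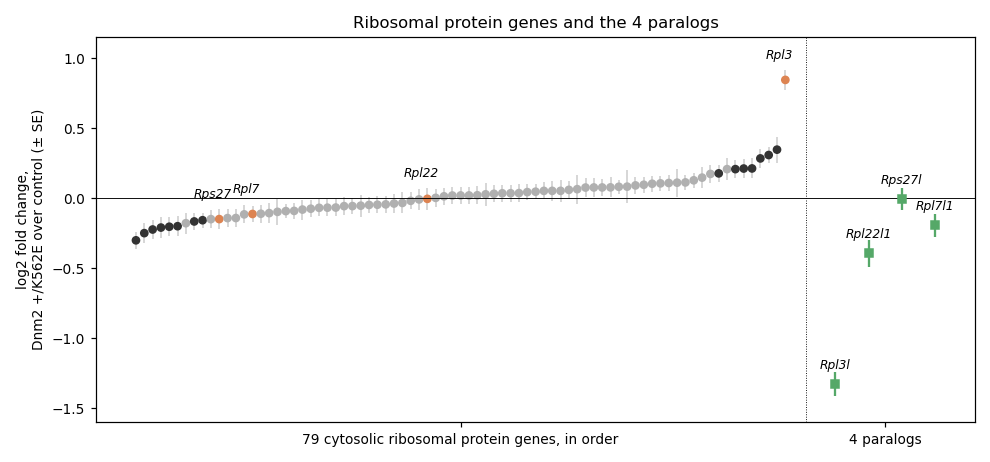
Log2 fold change ± SE (Dnm2 +/K562E over control, vertical axis) of the 79 cytosolic ribosomal protein genes in order of fold change (circles) and of the 4 paralogs (green squares). Orange marks Rpl3, Rpl22, Rps27 and Rpl7, and black marks other genes that passed the test. Rpl3 stands at 0.85 and Rpl3l at -1.33, and the 75 genes outside the pairs lie at 0.35 or below, none of them past 0.58 in either direction.

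Other ribosomal protein paralogs differed by at most 0.33 on the log2 scale where tested, and the rest were scarcely present or absent. Rpl36al, a paralog of Rpl36a, went from 50.1 ± 2.27 to 63.0 ± 3.44 CPM, a log2 fold change of 0.33 (SE 0.063, edgeR adjusted p = 0.00162). Rps27rt was at 4.25 ± 0.336 and 3.43 ± 0.234 CPM (log2 fold change -0.30, edgeR adjusted p = 0.0859) and Rps4l at 5.94 ± 1.04 and 5.38 ± 0.855 CPM (-0.14, edgeR adjusted p = 0.516). Rpl39l, at 0.197 ± 0.122 and 0.260 ± 0.0837 CPM, was too low to be tested, and Rpl10l, a testis gene, had a count of 0 in every mouse.

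Among 40 genes of rRNA transcription and ribosome assembly, 5 were higher and 2 lower, smaller shares than the 22.2% and 21.7% of all genes, with a median log2 fold change of -0.04. Grwd1, the chaperone that escorts newly made RPL3, went from 12.2 ± 1.31 to 9.88 ± 0.845 CPM (log2 fold change -0.31, edgeR adjusted p = 0.0347), opposite in sign to Rpl3. It lost its call without mutant 2, 3 or 4, or control 2 or 3 (edgeR adjusted p 0.0552 to 0.0998). Rrp9, a protein of the U3 snoRNP, was lower by a similar amount (-0.36, edgeR adjusted p = 0.0038). Myc, a transcription factor that drives ribosome production, doubled from 4.47 ± 1.14 to 8.94 ± 0.673 CPM (log2 fold change 1.00, edgeR adjusted p = 7.31e-04), and the processome components Nop14 and Heatr1 rose by 0.36 and 0.29. Heatr1 lost its call without mutant 1 or 4, or control 1, 2 or 4 (edgeR adjusted p 0.0601 to 0.109).

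Among 36 translation factors 5 were higher and 9 lower, against 22.2% and 21.7% of all genes, with a median log2 fold change of -0.06. Elongation factor 1 alpha has, like RPL3, a general and a muscle form, Eef1a1 and Eef1a2. Eef1a1 rose from 1032 ± 41.0 to 1504 ± 126 CPM (log2 fold change 0.54, SE 0.0727, edgeR adjusted p = 1.61e-04). Eef1a2 was at 942.8 ± 78.2 and 845.2 ± 69.4 CPM and did not pass (-0.16, edgeR adjusted p = 0.138). Their CPM ratio, Eef1a2 to Eef1a1, was 0.810, 0.991, 1.00 and 0.857 in controls and 0.504, 0.581, 0.510 and 0.669 in mutants, without overlap. The RNA helicases Eif4a1 and Eif4a2 also differed in opposite directions, by 0.33 and -0.46 on the log2 scale (edgeR adjusted p = 0.00235 and 7.57e-05), and the ratio of Eif4a2 to Eif4a1 went from 2.07 to 2.37 in controls to 1.16 to 1.43 in mutants. The ratios of these factor pairs were formed after their values were seen and carry no test. Eif1a rose by 0.53, and the cap-binding protein Eif4e and the start codon factor Eif1 fell by 0.67 and 0.44 on the log2 scale.

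**Figure D5:**
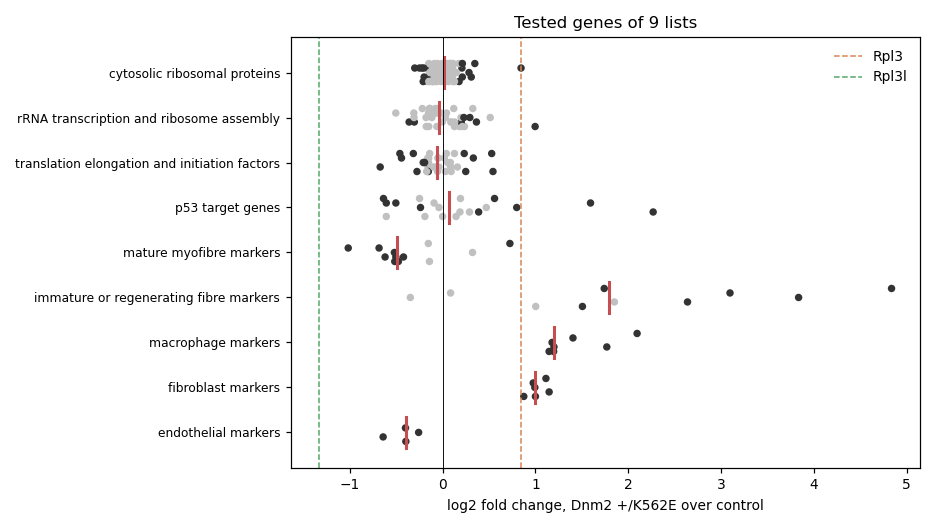
Log2 fold change (Dnm2 +/K562E over control, horizontal axis) of each tested gene of 9 lists, black where it passed the test and grey where it did not, with red bars for the list medians and dashed lines for Rpl3 (0.85) and Rpl3l (-1.33). Ribosomal proteins gather around 0 apart from Rpl3, and the medians of fibroblast and macrophage markers lie at 1.00 and 1.20.

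The genes most like each member of the first pair were taken as those whose log2 CPM, set to 0 at the control mean, differed least over the 8 mice by root mean square. For Rpl3l these were Prr33 (0.0693), Ivd (0.085), Ppp1r14c (0.0896), Tmod4 (0.105) and Fmc1 (0.111). Ivd encodes a mitochondrial enzyme of leucine breakdown and Tmod4 the tropomodulin of skeletal muscle thin filaments, which went from 306.3 ± 15.2 to 125.4 ± 5.78 CPM. For Rpl3 they were Vat1 (0.0779), Ppic (0.0803), Kctd12 (0.0822), Gprc5b (0.0857) and Anxa7 (0.086). Ppic, a cyclophilin of the secretory pathway, went from 41.5 ± 1.66 to 75.5 ± 2.06 CPM, and Anxa7, an annexin, from 69.4 ± 0.921 to 130.2 ± 3.99 CPM. No ribosomal protein was among either group, and the likeness reflects mainly the difference between the genotypes.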

How the data were processed

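Soleus RNA was sequenced from 4 control and 4 Dnm2 +/K562E mice. The authors trimmed reads with Trimmomatic 0.33, aligned them with STAR 2.5.1b to GRCm38.p5 and assigned them to genes with featureCounts, and they deposited the resulting counts without normalization. Their counting dropped poorly mapped reads, kept the primary alignment of reads with several, and credited every gene that a read overlapped, so genes with near-identical copies may be undercounted. The study's methods name a poly A kit and the labels a stranded total RNA kit. The strand setting of the counting is not given in the sources used here.

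Groups followed the genotype labels. Of 22880 gene IDs, 22647 matched GENCODE M21. filterByExpr (minimum count 10, minimum total 15) kept 14001 genes, and edgeR 4.0.16 in R 4.3.3 gave TMM factors and the quasi-likelihood test, with Benjamini-Hochberg adjustment over all tested genes. Normalized CPM are counts over library size times TMM factor. SEs follow from the F statistic. Pair ratios are ratios of counts, compared by exact two-sided permutation tests (scipy 1.17.1) except for the pair picked by its values. Levels per kb used the lengths of the APPRIS principal transcripts. The fitting code was tested on simulated data. The lowest chi-square per degree of freedom between replicates of a genotype was 12.6, above what sequencing the same library again would give. It cannot exclude libraries prepared from the same RNA, and libraries of different genotypes were not compared. Depth was 33407430 to 48832814 counts, and the smallest p that 4 against 4 mice allow in the permutation test is 0.0286.

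The members and gene lists were chosen with earlier results of these data known. Named are the 8 members, the 5 genes most like Rpl3 and Rpl3l, the other paralogs, Eef1a1, Eef1a2 and Grwd1, the cell type markers, and per functional list up to 3 genes of largest change in each direction, leaving out predicted gene models and -ps pseudogenes among the like genes. A gene that this rule names is not reported here. Sequences came from GENCODE M21 transcripts and from RefSeq promoters (GRCm38.p6), which held 6 of the 8 members. The alternatives tried were DESeq2 1.42.0, edgeR's exact test, scaling by median-ratio factors or by library size alone, no filter, a replicate block, a length and GC correction (mgcv 1.9.3), a fold threshold of 0.58 on the log2 scale and leaving out each mouse.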

Additional observations from a re-analysis of the deposited data

Results flagged for a closer look

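Values far from the other 3 mice of their genotype by Dixon's criterion for 4 samples were found in 8 of 100 groups examined, and chance alone gives about 1 in 20. The one concerning the members was the count ratio of Rpl3l to Rpl3 in control 1, at 2.517 against 2.93 to 3.01 in the other controls. The remaining 7 were single normalized CPM values: Rpl10 in control 3 (259.9), Rpl36al in control 2 (53.52), Eif4a1 in control 1 (133.9), Rps4l in mutant 4 (4.108), Fas in mutant 4 (12.08), Eda2r in mutant 3 (93.33) and Fmc1 in mutant 1 (11.35).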

How the results depend on the processing

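All 4 pair ratios kept their direction and, where tested, their side of the threshold under the length and GC correction (-2.14 for Rpl3l to Rpl3, -0.36 for Rpl22l1 to Rpl22, 0.18 and -0.09 for the Rps27 and Rpl7 pairs) and without each mouse in turn, as values with no test (-2.24 to -2.10, -0.43 to -0.31, 0.08 to 0.21 and -0.13 to -0.01). With the replicate block the ratio differences are the same by construction (-2.18, -0.39, 0.14 and -0.08), since the mean of the within-number differences is the difference of the group means. Same-numbered mice did not deviate together (mean correlation -0.11 for title and -0.03 for description numbers). The check gave no sign of a pairing by number, but it cannot exclude that same-numbered mice were related or handled together. Adding pseudogene reads could not be run, as 0 of the 6 pseudogenes named after members were counted. Library size alone moved the median of all genes to 0.22. With it, Rpl22 and Rps27l turned from near 0 to 0.20 each (edgeR adjusted p = 0.0245 and 0.0424), Rpl22l1 lost its call (-0.18), 5608 genes were higher and 1504 lower (3103 and 3036 before), and of the 79 ribosomal proteins 54 were higher and 0 lower (8 and 8 before). With the fold threshold the counts were 1806 and 1099, and 1 and 0. The ribosomal protein counts were also moved by the length and GC correction (15 and 5), by the replicate block (4 and 3 with title, 5 and 4 with description numbers) and, for the lower genes, by the exact test of edgeR (5) and by no filter (5). Leaving out 1 mouse gave 4 to 9 higher and 1 to 10 lower ribosomal proteins. The higher count was 5 or less without mutant 2 or 4 or control 2 or 4, and the lower count 5 or less without mutant 1, 2 or 4 or control 2 or 3. Over the same leave-outs 2 to 6 assembly genes were higher and 1 to 5 lower, and 3 to 6 translation factors were higher and 6 to 12 lower. Of 36 other genes chosen by the naming rule none reversed and 8 lost their call in at least 1 alternative, among them Rrp9 and Fas under library size alone only. The cause of these changes was not tested.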
